A study of Mus musculus with 2 samples.

Results

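Chromosome 11 held 421 of the 7610 chromatin boundaries called in mature olfactory sensory neurons of the mouse. All boundaries on chromosome 11 of the mouse build GRCm38 were members. The chromosome was chosen by its measured boundary density, the highest per Mb of the 19 autosomes, so its density and strength are given as a description, without a test. The assay was in situ Hi-C, where chromatin is fixed, cut and religated inside nuclei so that sequences lying close in space are joined and sequenced. The neurons were sorted from olfactory epithelium (adult mice, mixed sex, strain not specified), in 2 biological replicates of 1000000 cells each, fixed with 1% formaldehyde and digested with DpnII. All cells came from the only group analysed here, a conditional knockout of Ldb1 made with OMP-Cre. Omp is a gene of mature olfactory neurons, so the deletion is driven late in the lineage, and Ldb1 is a cofactor that bridges transcription factors. Control neurons were not analysed here, so no value below is an effect of the knockout.

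A boundary is a short stretch of chromosome across which few Hi-C contacts pass, and neighbouring boundaries enclose a domain whose sequences touch each other more often. In mammals many boundaries form where CTCF, a zinc finger protein with a directional binding sequence, stops cohesin as it extrudes a loop of DNA. Others lie at active promoters, and genes used in every cell are known to be common beside them. Olfactory neurons are a special case, since clusters of olfactory receptor genes from different chromosomes gather in the nucleus and Ldb1 takes part in that assembly.

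Each boundary is a bin of 5 kb with a strength, a score of the authors, and a class. Boundaries with a strength of at least 0.5 were strong and those from 0.2 up to that value were weak. The list was called on the pooled contacts of both replicates, so no boundary has a replicate error and the depth behind it is unknown. Intervals of shares and densities are exact 95% intervals, those of a difference between shares use the normal approximation, and all cover counting error only.

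The sequences below show the features that the gene context turns on. The 25 strongest boundaries of chromosome 11 had 13 matches to the CTCF consensus in the bin or within 10 kb, at 8 of these boundaries, and 5 of the 13 are printed. Capitals mark the 12 bases of the consensus, each with 9 flanking bases, read 5′ to 3′ on the strand of the match and taken from the RefSeq sequence of GRCm38.p6. A match is a sequence and not a binding measurement.
Mettl2 boundary, chr11:105124205-105124234, + strand: ctttatcgtCCACTAGGGGGCccctcgatt
Mrm1 boundary, chr11:84813274-84813303, - strand: gagaggtatCCACCAGATGGCaagaagtct
Fam114a2 boundary, chr11:57467950-57467979, - strand: cctttctggCCAGCAGGTGGCagtgctgcc
Kcnj2 boundary, chr11:111532647-111532676, - strand: tccatgtgaCCACTAGATGGCagagtagtg
Kcnj2 boundary, chr11:111537833-111537862, + strand: aacatgttaCCAGCAGGTGGCagtccagta
The match at the Mettl2 boundary (strength 2.27) lay 9.21 kb to the right of the bin and pointed away from it. The match at the Mrm1 boundary (2.24) lay in the bin, in a UTR of Mrm1. The match at the Fam114a2 boundary (2.20) lay 2.96 kb to the right and pointed back towards the bin. The boundary 464 kb from Kcnj2 (1.83) had a reverse match inside the bin and a forward match 2.84 kb to its right. The printed matches other than that in Mrm1 lay outside protein-coding genes.

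Promoters beside strong boundaries differed in their content of CG dinucleotides, which are shown in capitals. The stretches are the part of the RefSeq promoter window, which starts 250 bases before the transcription start site (TSS), that precedes the first GENCODE exon there, and that of Olfr410 lies in an intron of a longer transcript.
Eif1, chr11:100319699-100319884, + strand: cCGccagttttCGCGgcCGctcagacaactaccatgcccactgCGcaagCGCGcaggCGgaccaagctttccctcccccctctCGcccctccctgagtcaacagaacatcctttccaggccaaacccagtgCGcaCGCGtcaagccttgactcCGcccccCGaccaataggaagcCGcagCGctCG
Cep112, chr11:108425016-108425191, + strand: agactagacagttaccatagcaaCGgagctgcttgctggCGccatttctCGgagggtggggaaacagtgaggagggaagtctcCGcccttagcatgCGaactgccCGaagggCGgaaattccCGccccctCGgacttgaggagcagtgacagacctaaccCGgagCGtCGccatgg
Phf12, chr11:77982566-77982753, + strand: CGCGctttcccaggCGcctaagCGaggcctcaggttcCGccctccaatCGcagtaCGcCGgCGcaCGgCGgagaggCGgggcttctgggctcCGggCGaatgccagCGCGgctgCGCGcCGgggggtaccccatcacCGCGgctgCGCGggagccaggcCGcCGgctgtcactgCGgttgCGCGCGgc
Olfr410, chr11:74335236-74335479, - strand: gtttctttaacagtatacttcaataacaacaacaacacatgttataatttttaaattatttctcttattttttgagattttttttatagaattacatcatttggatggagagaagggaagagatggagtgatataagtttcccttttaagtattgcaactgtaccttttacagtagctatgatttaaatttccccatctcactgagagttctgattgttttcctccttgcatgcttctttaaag
The stretch of Eif1, which helps select the start codon, held 17 CG dinucleotides in 186 bases. That of Cep112, a centrosomal protein gene, held 12 in 176 bases. That of Phf12, which encodes a chromatin-associated PHD finger protein, held 29 in 188 bases. The stretch of Olfr410, an olfactory receptor gene, held 0 in 244 bases, although the boundary near it (2.37) was stronger than that near Phf12 (1.96). In the full 250 bases before the start, Eif1 had 24, Cep112 18, Phf12 41 and Olfr410 0. Over the 2289 RefSeq promoters of chromosome 11, the median number of CG dinucleotides in the 250 bases before the start was 8. It was 13 for the 325 promoters whose start lay in a boundary bin or within 10 kb, and 14 for the 83 in a bin. A GC box (GGGCGG on either strand) was present in 43.7% of promoters at a boundary and in 37.6% of all. The ETS motif (CCGGAAG, either strand) was present in 10.8% and 7.56%, and the CCAAT box (CCAAT, either strand) in 32.0% and 33.7%. The motif letters of the GC box overlap with those counted as CG. A motif that is not in a window says nothing about the factor.

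Of the 421 boundaries, 264 were strong (62.7%, interval 57.9 to 67.3%) and 157 weak. Over the whole list 52.9% were strong, and the other 18 autosomes together had 53.7%. Chromosome 11 carried 3.45 boundaries per Mb (interval 3.13 to 3.79) over its 122082543 bases, against 2.89 per Mb (2.82 to 2.96) on the other autosomes, which ranged from 2.47 on chromosome 14 to 3.12 on chromosome 9. Counting strong boundaries alone, it had 2.16 per Mb, against 1.20 to 1.82 on the others. The class and the density were used in choosing or calling these bins, so nothing is read from these shares. The median strength was 0.643 (quartiles 0.356 and 1.03), against 0.551 over the other autosomes, whose medians ranged from 0.490 to 0.650.

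By strength, boundaries of at least 0.25 made up 90.3% on chromosome 11 and 86.7% on the other autosomes. Those of at least 1 made up 27.1% on chromosome 11 (114 boundaries) and 23.1% on the other autosomes. At 1.5 or more the shares were 9.03% (38 boundaries) and 8.85%, and at 2 or more they were 3.33% (14 boundaries) and 2.88%. At 3 or more there were 2 boundaries (0.475%) and 8 (0.118%). The classes met without a gap. The members just inside the strong class had strengths of 0.502, 0.503 and 0.505, and those just outside had 0.4998, 0.499 and 0.496.

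Boundaries followed gene density and GC content along the chromosome. Windows of 10 Mb counted from the centromeric end held 23 to 43 boundaries each, apart from the partial last one. The window from 10 to 20 Mb was the sparsest, with 2.30 boundaries per ungapped Mb, 2.30 protein-coding TSSs per Mb, a median strength of 0.418 and 39.1% strong. The window from 70 to 80 Mb had 4.30 boundaries and 23.1 TSSs per Mb. Density of boundaries and density of TSSs went together across the 13 windows (Spearman's rank correlation 0.820, Pearson's r 0.901). With the base composition of the window, the GC percentage, the rank correlation was 0.795 and Pearson's r 0.938. In windows of 5 Mb the rank correlation was 0.829 with TSS density and 0.910 with GC percentage. These windows are neighbours on 1 chromosome, share the same pooled contacts and differ together in GC content, so the correlations are descriptions.

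Strength followed TSS density less closely. The median strength of a window had a rank correlation of 0.313 with TSS density and of 0.610 with GC percentage over the 13 windows, and the strong share had 0.281 and 0.657. The window from 80 to 90 Mb had the highest median (0.879, 71.1% strong) with 13.1 TSSs per Mb. The next window, from 90 to 100 Mb, had 20.7 TSSs per Mb and almost the same number of boundaries (39 against 38), yet a median of 0.423 and 43.6% strong. The windows from 100 to 110 Mb and from 110 to 120 Mb had 75.6% strong each.

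**Figure D1:**
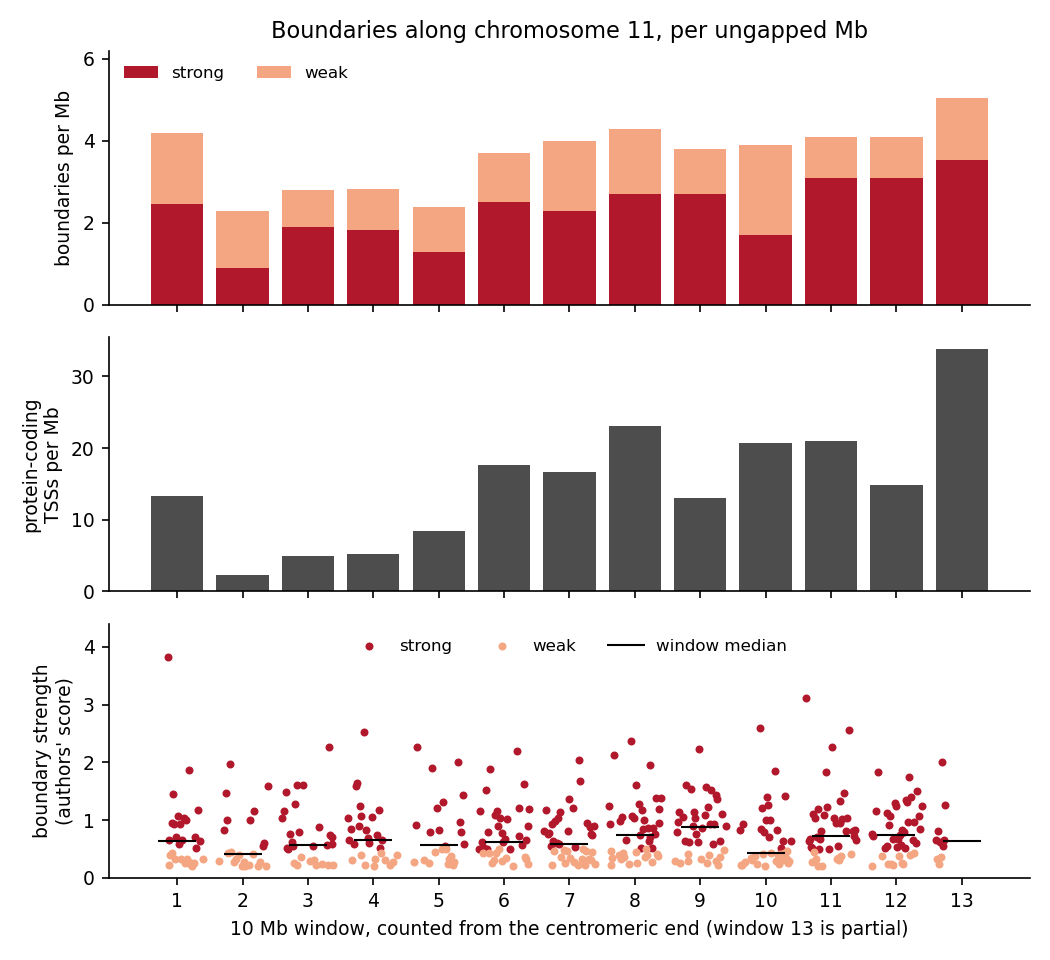
Boundaries per ungapped Mb by class (top bars, strong in red and weak in orange), protein-coding TSSs per ungapped Mb (middle bars) and the strength of each boundary as the authors' score (bottom points, with the median of each window as a line) in 13 windows of 10 Mb, the last one partial. The window from 10 to 20 Mb has the lowest bar in the top and middle panels, and the median line drops to 0.423 in the window from 90 to 100 Mb.

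The proximal 50 Mb and the rest of the chromosome were set apart after the windows had been seen. The proximal part held 132 boundaries, at 2.82 per ungapped Mb (interval 2.36 to 3.35), with 6.42 TSSs per Mb. The distal remainder held 289, at 4.01 per Mb (3.57 to 4.51), with 18.6 TSSs per Mb. Median spacing was 300 kb in the proximal part and 210 kb in the distal part. A TSS lay within 10 kb of 28.8% of proximal and 49.8% of distal boundaries, and a CTCF consensus match within 10 kb of 22.0% and 34.9%. Among all ungapped bins the shares were 13.3% proximal and 33.3% distal for a TSS, and 9.64% and 19.7% for the consensus, so both features differed in the same direction over all bins.

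Because chromosome 11 is gene rich, its bins were compared with bins of like gene content elsewhere. Only 31.5% of its bins had no protein-coding TSS within 100 kb, against 43.3% on the other autosomes. In such bins chromosome 11 had 1.85 boundaries per Mb (interval 1.44 to 2.34) and the others 1.89 (1.80 to 1.97). With 1 or 2 TSSs in reach the densities were 3.70 (3.07 to 4.42) and 3.53 (3.40 to 3.67). With 3 to 5 TSSs they were 4.90 (4.10 to 5.80) and 4.21 (4.00 to 4.42), and with 6 to 10 they were 4.50 (3.55 to 5.61) and 4.04 (3.71 to 4.38). If the other autosomes had the mix of bins found on chromosome 11, their density would be 3.26 per Mb in place of 2.97. The ungapped bins of chromosome 11 had 3.55 per Mb. The chromosome was chosen for its density, so an excess over the others was fixed by that choice. Whether gene content accounts for any of the excess was not tested.

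The strong share moved with gene content too. On chromosome 11, 36.2% of boundaries (interval 25.0 to 48.7%) with no TSS within 100 kb were strong, 65.3% of those with 1 or 2, 73.1% (64.8 to 80.4%) of those with 3 to 5 and 65.4% of those with 6 to 10. On the other autosomes the shares were 29.5%, 60.5%, 68.7% and 61.2%. With over 10 TSSs the share was 57.9% (33.5 to 79.7%) on chromosome 11 and 52.7% on the other autosomes. The highest share was at 3 to 5 TSSs on chromosome 11 and on the other autosomes alike. On chromosome 11 its interval overlapped those at 1 or 2 TSSs (56.1 to 73.7%) and at 6 to 10 (53.8 to 75.8%). Weighted to the classes that chromosome 11 boundaries fell in, the other autosomes had 57.8% strong.

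**Figure D2:**
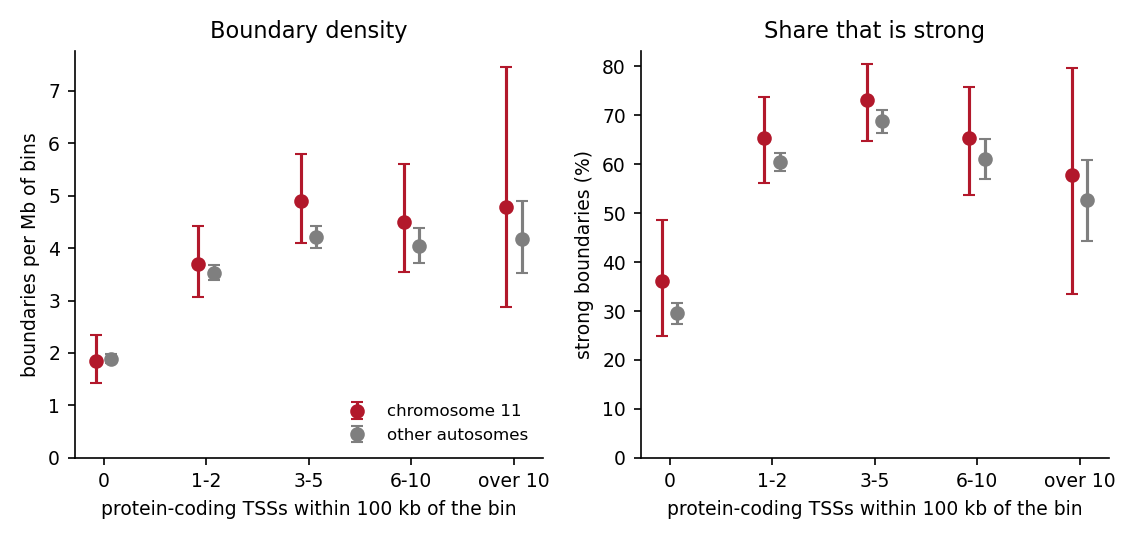
Boundary density per Mb of bins (left) and the percentage of boundaries that are strong (right) for bins with 0, 1 to 2, 3 to 5, 6 to 10 or over 10 protein-coding TSSs within 100 kb, on chromosome 11 (red) and the other autosomes (grey), with exact 95% intervals for counting error. Density rises from 1.85 per Mb at 0 TSSs to 4.90 at 3 to 5 TSSs on chromosome 11.

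The median distance between neighbouring boundaries was 230 kb (quartiles 170 and 340 kb, 420 intervals), against 265 kb (190 and 400 kb) on the other autosomes. The spacing ran from 70 to 1325 kb. Its coefficient of variation was 0.619, against 0.743 elsewhere, where the longest interval was 3865 kb. The 110 shortest intervals, up to 170 kb, held 26.2 TSSs per Mb, and the 103 longest, over 340 kb, held 7.49. The strengths of a boundary and of the next did not go together (rank correlation -0.0394 over 420 pairs).

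Several of the longest intervals held few genes. An interval of 1320 kb from 24035001 (1.61) to 25355001 (0.298) held Bcl11a, a zinc finger repressor that silences fetal globin in humans, and A830031A19Rik. An interval of 1135 kb between weak boundaries near Tom1l1 (0.276) and Kif2b (0.339) held the TSS of Kif2b, a mitotic kinesin, alone. An interval of 1035 kb between weak boundaries of 0.310 and 0.228 held the TSS of Tenm2 alone, which encodes a teneurin that joins synaptic partners. An interval of 975 kb began at a boundary of 2.13 near 6330403K07Rik and held Nlrp1a and Nlrp1b, which encode inflammasome sensors, and Wscd1.

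The shortest intervals differed in how many genes they held. The shortest of all, 70 kb between boundaries near Rnf185 (0.224) and Selenom (0.654), held 3 TSSs, those of Pla2g3, Inpp5j and Selenom. The interval of 90 kb between Aurkb (0.758) and Aloxe3 (0.307) held 7 TSSs, among them Vamp2, which encodes the vesicle protein synaptobrevin, and Per1, a core clock gene. An interval of 80 kb lay within Ehbp1 and held 0 TSSs. An interval of 95 kb joined boundaries near Dynll2 (1.44), a dynein light chain gene, and Srsf1 (0.299), a splicing factor gene, and held both of their TSSs. An interval of 100 kb lay between Icam2 and Ern1, with 1 TSS.

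Of 420 neighbouring pairs 163 (38.8%) were both strong and 57 (13.6%) both weak, in a list that was 62.7% strong. The longest runs of 1 class are given as places. A run of 9 strong boundaries reached over 2.44 Mb from Spred2 to Ehbp1, and runs of 8 strong ones lay from Rack1 to Zfp354c and from Unc45b to Mrm1. A run of 8 weak boundaries reached over 3.49 Mb from Cobl to Vstm2a, in the window with the fewest TSSs. Long genes were not free of boundaries. Tenm2, 1229 kb long, contained 5 boundaries (3 strong). Sgcd, 1093 kb long and encoding a sarcoglycan, contained 4 weak ones, and Asic2, 1088 kb long and encoding an acid-sensing channel, contained 3 (2 strong). These are 4.07, 3.66 and 2.76 per Mb, beside 3.45 per Mb for the chromosome. Next in length, 5730522E02Rik contained 2 (3.29 per Mb). Slit3, Dock2 and Car10 then contained 1 each (1.70, 1.80 and 1.99 per Mb). Cep112, 435 kb long, contained 0 beyond the one at its promoter. The genes of these runs and the long genes other than Tenm2 and Cep112 were chosen after their values had been seen.

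Boundaries lay near promoters more often than bins of the chromosome in general. A protein-coding TSS was in the bin or within 10 kb of 182 boundaries (43.2%, interval 38.4 to 48.1%), against 25.4% of all ungapped bins of chromosome 11. On the other autosomes together the share was 31.1% of boundaries against 16.8% of bins. The ratio of boundaries to bins was 1.70 on chromosome 11, rank 15 of 19 autosomes, and ranged from 1.49 to 2.61 on the others. The TSS was in the bin itself at 62 boundaries (14.7%, against 6.27% of bins). Bins overlapping an exon made up 191 boundaries (45.4%, against 31.6% of bins), bins wholly in an intron 57 (13.5%, against 21.4%) and bins outside protein-coding genes 173 (41.1%, against 47.0%). Exons were thus more frequent, and introns less frequent, in boundary bins than in bins of the chromosome. Seen from the genes, 276 of the 1639 protein-coding TSSs (16.8%, interval 15.1 to 18.7%) were at a boundary, 196 of them at a strong one.

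Density of TSSs peaked in the boundary bin, at 16.9 per 100 bins, against 8.42 per 100 bins 200 to 300 kb away. The direction of transcription showed little order. Of 205 TSSs beside a bin, 113 (55.1%, interval 48.0 to 62.1%) were on the strand that reads away from it, an interval that includes equal shares.

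The CTCF consensus was in the bin or within 10 kb of 130 boundaries (30.9%, interval 26.5 to 35.5%), against 15.7% of all ungapped bins. On the other autosomes the shares were 24.9% of boundaries and 11.1% of bins. The ratio of boundaries to bins was 1.96 on chromosome 11, rank 17 of 19 autosomes, and ranged from 1.91 to 2.77 on the others. Chromosome 11 had 858 matches in all, 440 on the forward and 418 on the reverse strand. In the boundary bin there were 4.51 forward and 3.80 reverse matches per 100 bins, against 2.15 and 1.98 per 100 bins 200 to 300 kb away. Matches beside the bin were ordered by strand. Within 50 kb, 317 of 464 (68.3%, interval 63.9 to 72.5%) pointed away from the boundary and into the adjoining domain, 149 of 224 on the left and 168 of 240 on the right. The share was 72.2% (67.1 to 77.0%) beside strong boundaries and 58.1% (49.1 to 66.8%) beside weak ones, and 66.4% on the other autosomes. Of 414 intervals between boundaries, 51 (12.3%) had matches facing each other from their ends and 17 (4.11%) had the opposite arrangement.

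**Figure D3:**
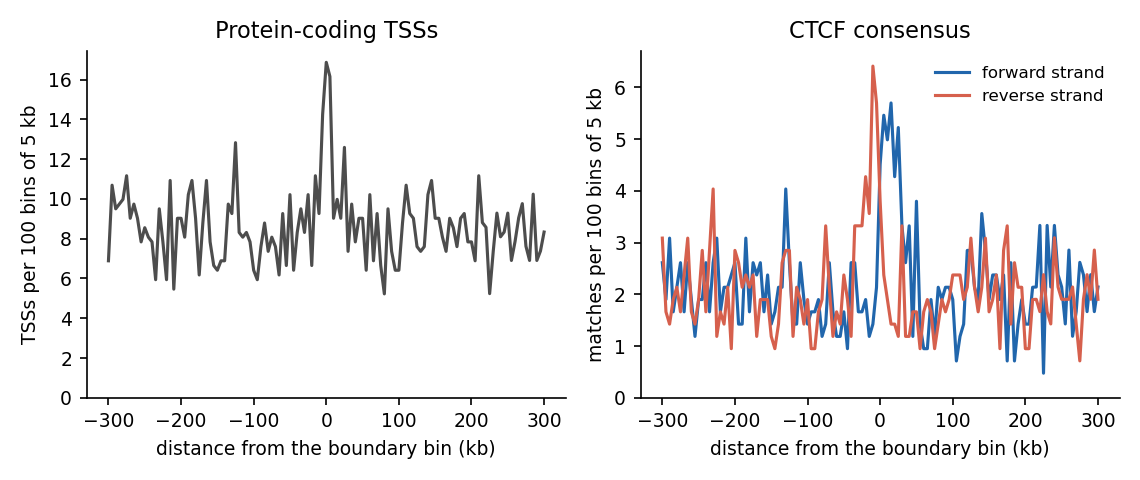
Protein-coding TSSs (left) and CTCF consensus matches by strand (right; blue forward, red reverse) per 100 bins of 5 kb, against distance from the boundary bin in kb, summed over the 421 boundaries of chromosome 11. TSSs peak at 16.9 per 100 bins at distance 0, reverse matches are highest just to the left of it and forward matches just to the right.

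Strong boundaries had a TSS nearby more often than weak ones. It was present at 127 of 264 strong boundaries (48.1%) and at 55 of 157 weak (35.0%), which differed by 13.1 percentage points (interval 3.48 to 22.7). The size depended on the window: the difference was 3.17 points in the bin alone (15.9% against 12.7%) and 16.8 points within 25 kb. For the CTCF consensus the shares were 88 of 264 (33.3%) and 42 of 157 (26.8%), a difference of 6.58 points whose interval (-2.38 to 15.5) includes 0. This difference depended on the window and motif: it was -0.326 points in the bin alone, 17.98 points within 25 kb (54.9% against 36.9%) and 12.2 points with the looser consensus (90.5% against 78.3%). Strength also varied with the features together. The 53 boundaries with both a TSS and the consensus had a median strength of 0.755, the 129 with a TSS only 0.700, the 77 with the consensus only 0.660 and the 162 with neither 0.541. Boundaries with neither made up 38.5% of the members and 52.6% of those on the other autosomes, where their median was 0.423.

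**Figure D4:**
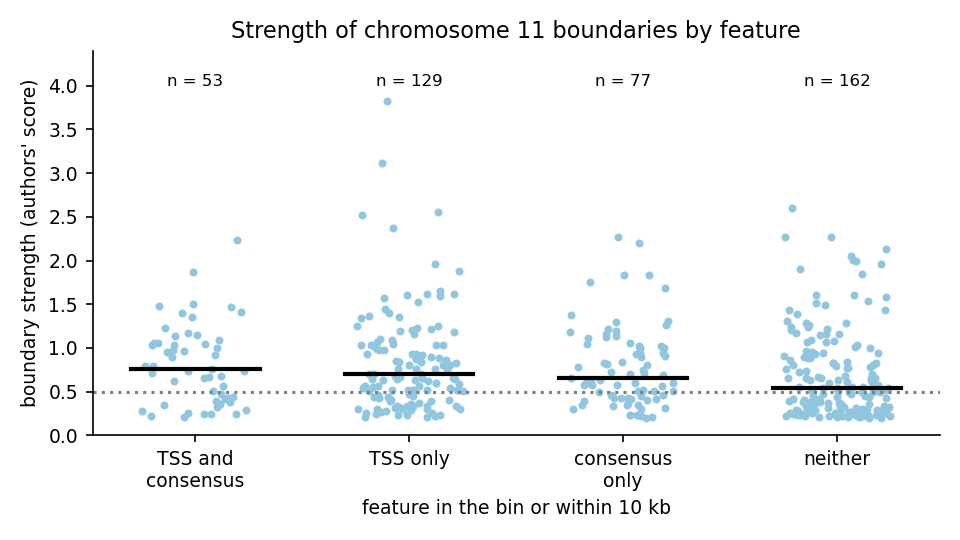
Strength (authors' score) of each boundary of chromosome 11, by whether a protein-coding TSS, a CTCF consensus match, both or neither lay in the bin or within 10 kb, with the median of each class as a bar and the strong threshold of 0.5 dotted. The ranges overlap widely, and the medians run from 0.755 with both features to 0.541 with neither.

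The relations of strength with single features were weak. Spearman's rank correlation with the number of TSSs within 10 kb was 0.115 over the 421 bins, with the number of consensus matches 0.0800 and with GC content 0.112. On the other autosomes the same values were 0.150, 0.192 and 0.267. By gene context, bins outside protein-coding genes had a median strength of 0.664, those on an exon 0.656 and those in an intron 0.545. On the other autosomes the medians were 0.483, 0.659 and 0.464, so it was outside genes that the members lay farthest from the rest.

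The 20 strongest boundaries had a TSS about as often as all members. A TSS lay within 10 kb of 9 of the 20, beside 182 of all 421, and in the bin of 2, beside 62 of 421. The CTCF consensus lay within 10 kb of 4, beside 130 of 421, and 12 lay outside protein-coding genes, beside 173 of 421. Among the 20 weakest the counts were 5, 2, 4 and 13. Soft-masked repeats took a median of 34.2% of the bin in the strongest and 26.6% over all members, but over the 421 members strength and repeat share had a rank correlation of 0.0397.

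The strongest boundary of the chromosome (3.82) was also its first, at chr11:3195001-3200000 in an intron of Drg1. It was 1.54 kb from the TSS of Sfi1, a centrosomal gene, and 2.39 kb from that of Eif4enif1, whose product carries the cap-binding factor eIF4E into the nucleus. It lay close to the assembly gap of 3100 kb at the centromeric end, the only member within 100 kb of a gap, and 56.5% of its bin was repeat sequence. The second (3.11) was at chr11:100310001-100315000, outside genes and 4.89 kb from the GENCODE TSS of Eif1. It lay 40.1 kb past the end of the keratin cluster at Krt42. The next ones were 30.8 kb from Utp18, a ribosome assembly gene (2.60), at the promoter of Cep112 (2.56), 1.80 kb from Npm1, which encodes the nucleolar protein nucleophosmin (2.52), and 1.97 kb from Olfr410 (2.37). Both of the following had no TSS within 10 kb and lay near Pnpt1, a mitochondrial RNA exonuclease gene (2.27, with 87.9% of the bin repeat sequence), and Mettl2, a tRNA methyltransferase gene (2.27).

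The remaining boundaries of the 20 strongest ran from 2.26 to 1.87. Those beside Mrm1, which encodes a mitochondrial rRNA methyltransferase (2.24), Phf12 (1.96), 9530068E07Rik (1.88) and Gm11985 (1.87) had a TSS within 10 kb. Those nearest Ccng1 (2.26), Fam114a2 (2.20), 6330403K07Rik (2.13), Pirt (2.05), Rack1 (2.00), Hexdc (2.00), Cobl (1.96) and Ttc1 (1.90) had none, with Cobl farthest at 110 kb. Pirt encodes a regulator of the TRPV1 channel in sensory neurons, and Rack1 a scaffold protein of the small ribosomal subunit.

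Genes listed as translation factors and cytosolic ribosomal protein genes lay at boundaries in a larger share than the 16.8% of all genes of the chromosome. Of the 5 genes listed as translation factors 4 were at a boundary (interval 28.4 to 99.5%), all strong. They were Eif4enif1 (3.82), Eif1 (3.11), Eif4a3 (1.06), an exon junction helicase gene, and Eif4a1 (0.892), the helicase of the cap complex. Eif4enif1, which encodes a carrier of eIF4E, and Eif4a3 are not general translation factors, so the count is that of the list as drawn up. Eif5a was 42.0 kb from the nearest. Of 8 cytosolic ribosomal protein genes 5 were at a boundary, with Rpl26 (0.886) and Rps27a (0.705) at the strongest and Rpl19 (53.3 kb) and Rack1 (40.3 kb) farthest from any. The share was 62.5% with an interval of 24.5 to 91.5%. The genes of the proteasome had 3 of 7, led by Psmd12 (1.47) and Psmd3 (1.42), with Psmb3 and Psmd11 at 71.6 and 36.4 kb. Mitochondrial ribosomal protein genes had 3 of 11, with Mrps23 (1.36) and Mrpl10 (0.294), and Mrpl22 at 208 kb and Mrpl27 at 76.2 kb. The respiratory chain had 1 of 8, Uqcrq (0.425), with Atp5g1 at 65.7 kb and Uqcr10 at 64.3 kb. Chromatin regulators had 8 of 26, led by Phf12 (1.96) and Brip1, a helicase gene of DNA repair (1.58), with Ncor1 at 141 kb and Ikzf1 at 110 kb. The counts are small and their intervals wide.

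Lists of neuronal and developmental genes also had counts whose intervals included the 16.8% of all genes. Of 40 synapse and channel genes 3 were (7.50%, interval 1.57 to 20.4%): Mapt, which encodes the axonal protein tau (1.23), Trpv3, a heat-gated channel gene (0.659), and Stx8 (0.229). Gabrb2 and Gria1, a glutamate receptor gene, were 275 and 261 kb away. Axon guidance and adhesion genes, some of them not neuronal, had 2 of 19 (interval 1.30 to 33.1%), Tenm2 (0.310) and Slit3 (0.207), both weak, with Nog at 207 kb and Wnt3 at 144 kb. Developmental transcription factors had 5 of 35 (4.81 to 30.3%), led by Hic1, a zinc finger repressor gene (1.61), and Dlx3 (0.999), with Stat5a at 149 kb and Rel at 141 kb. The TSS of Ebf1, a transcription factor that acts on olfactory receptor genes, was 12.3 kb past a strong boundary, and the next strong one, of 0.823, lay beyond the end of the gene at chr11:45015001-45020000.

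The same held for lists of other cells. Basal and supporting cell genes of the olfactory epithelium had 2 of 11 (2.28 to 51.8%), Sox9 (0.522) and Top2a (0.298), with Nog and Krt15 farthest (207 and 174 kb). Immune cell genes had 4 of 31 (3.63 to 29.8%), with Osm (1.44) and Cd68 (0.892) at the strongest and Mpo and Itgae at 166 and 161 kb. Of 5 imprinted genes, Commd1 and Zrsr1, which is nested in it, shared a boundary of 1.61, while Cobl and Ddc were 110 and 98.1 kb from any. A boundary list holds no expression, so these lists say nothing of which cells were present.

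**Figure D5:**
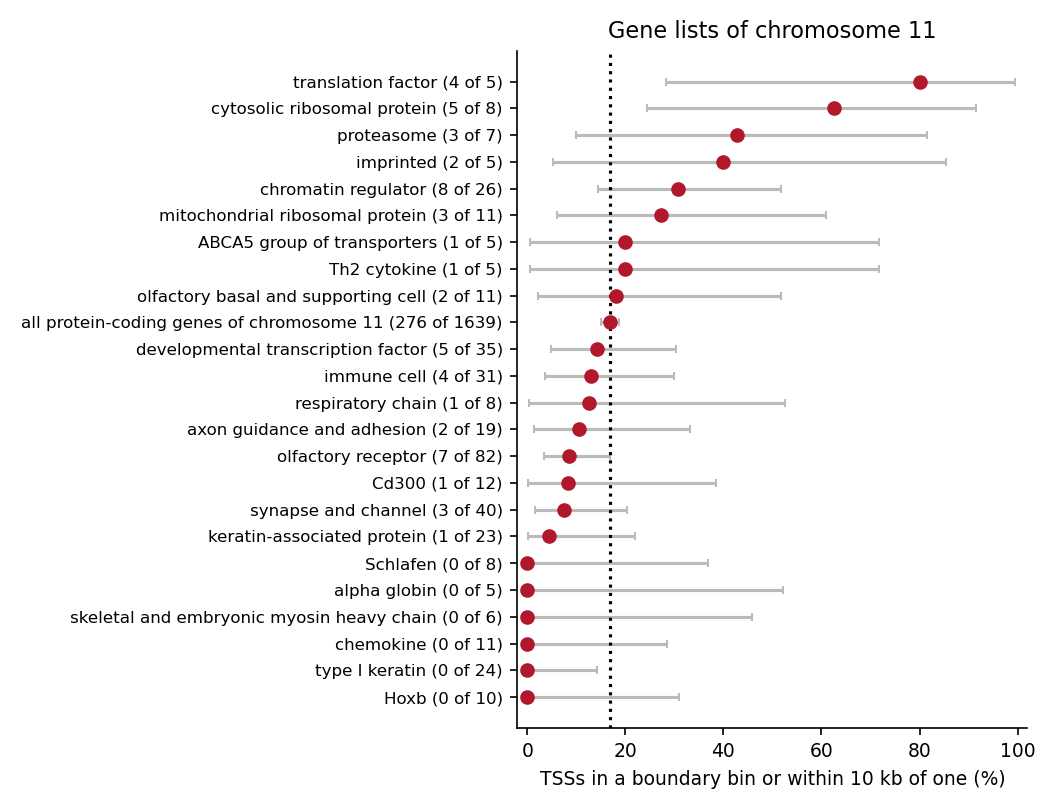
Percentage of the TSSs of each gene list with at least 5 genes on chromosome 11 that lay in a boundary bin or within 10 kb of one, with exact 95% intervals for counting error, ordered by percentage and with the count beside each name. The dotted line marks 16.8%, the share of all 1639 protein-coding genes. The list named translation factor lies highest (4 of 5) and 6 of the gene families shown lie at 0.

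Some tandem gene families had no strong boundary inside. The 10 Hoxb genes, from Hoxb13 to Hoxb1, pattern the body axis, and 0 of 10 TSSs were at a boundary. The interval (0 to 30.8%) includes the 16.8% of all genes of the chromosome. The cluster of 174 kb lay in a domain of 730 kb between a weak boundary (0.437) and a strong one (1.85). Of 24 type I keratin genes 0 were at a boundary (interval 0 to 14.2%, below the 16.8% of all genes). Genes of a cluster lie side by side, so they are not independent of each other. The cluster from Krt24 to Krt40 had weak boundaries of 0.254 and 0.286 inside, and that from Krt34 to Krt42 had 0 inside. Between them lay the keratin-associated protein genes, from Krtap3-3 to Krtap17-1, which did have a strong boundary inside (0.642), with 1 of 23 TSSs, that of Krtap4-13, at it. The 5 alpha globin genes, from Hba-x to Hbq1a, lay in a domain with boundaries of 0.891 and 1.24 at 101 and 119 kb.

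Other families were crossed by a strong boundary that set only the gene at 1 end apart. These end genes were Myh3, Ccl5, Slfn14, Cd300a, Abca5 and Il5, and Ccl1 is treated below. The 6 skeletal and embryonic myosin heavy chain genes from Myh3 to Myh13 had a boundary of 1.68 inside and 0 TSSs at it. The chemokine genes formed a cluster from Ccl2 to Ccl1 and a cluster from Ccl5 to Ccl4, and 0 of 11 TSSs were at a boundary. The interval (0 to 28.5%) includes the 16.8% of all genes. In the first cluster a boundary of 1.60 lay past all members but Ccl1. It counts as inside only because Ccl1 is annotated with a span of 129 kb, in an intron of which it lay. The second cluster had a boundary of 0.903 inside. The 8 Schlafen genes, from Slfn5 to Slfn14, had a boundary of 1.53 inside. The Cd300 cluster from Cd300a to Cd300lf had a boundary of 1.25 inside, and 1 of 12 Cd300 genes, Cd300lb, was at a boundary. The transporter genes from Abca8b to Abca5 had a boundary of 0.755 inside, beside Abca6. The cytokine genes from Il4 to Il5, which direct type 2 immunity, had a boundary of 1.16 inside, and Il3, next to Csf2, was 2.28 kb from a boundary of 1.04.

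Olfactory receptor genes, of which each mature olfactory neuron normally expresses a single allele, had 7 of 82 TSSs at a boundary. The share was 8.54% (interval 3.50 to 16.80%), against 16.84% of all protein-coding genes of the chromosome. Genes of a cluster can share a boundary, so they are not independent of each other. Olfr410 and Olfr411 shared the boundary of 2.37, and the cluster from Olfr20 to Olfr412, with 30 genes over 1015 kb, had that boundary and a weak one of 0.238 inside. The cluster from Olfr56 to Olfr1380, with 19 genes, had strong boundaries of 0.972 and 0.802 inside. The cluster from Olfr30 to Olfr311, with 21 genes over 390.0 kb, had none wholly inside and ended at a boundary of 1.62. The bin of that boundary overlapped Olfr311. Olfr385 and Olfr382 were farthest from any, at 252 and 247 kb. The smaller clusters, of 5, 3, 2 and 2 genes, had 0 inside. Boundaries lying wholly inside were thus found in the clusters of 30 and 19 genes only, and that of 2.37 lay 21.2 kb from the end of its cluster.

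Genes of transfer RNA were also seen at boundaries. Of the 47 tRNA genes that RefSeq places on chromosome 11, 17 (36.2%) lay at a boundary. They belonged to 7 boundaries (1.66%, against 0.467% of all bins), and on the other autosomes the shares were 0.266% and 0.163%. The boundaries beside Aurkb and Aloxe3, at the ends of the interval of 90 kb, held 7 and 5 of the 17, so the genes are not independent of each other.

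A gene desert between Kcnj2, a potassium channel gene, and Sox9 was chosen after its values had been seen. It was divided by boundaries of 1.83 and 0.383, while boundaries of 1.16 and 0.522 lay 21.2 kb from the TSS of Kcnj2 and 2.22 kb from that of Sox9. The boundary of 1.83 is the one whose reverse and forward CTCF matches are printed above.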

How the data were processed

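The deposited list gives boundaries with a strength, a score computed by the authors from the pooled contacts of both replicates, and a class, on GRCm38, per the labels. The boundary caller and its window were not given in the sources used. Members, gene lists and alternatives were chosen with earlier results of these data known. Genes were the 21755 protein-coding genes of GENCODE release M21 with 1 TSS each, and sequence, promoters and tRNA genes were from RefSeq GRCm38.p6. A feature was at a boundary in its bin or within 10 kb. The background was all 5 kb bins with at most 50% gap bases. The CTCF consensus of 12 bases was searched on both strands, and a looser form fixed 8 of them. Tandem clusters joined family members at most 200 kb apart.

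No test was possible on a pooled list, so exact binomial and Poisson intervals (95%) are given for shares and densities. The counting scripts were checked on simulated data. Named genes were those nearest the 20 strongest boundaries, the 2 members of each list with the strongest boundary and the 2 farthest from any, the ends of clusters, Ebf1, and the genes of the 5 longest and 5 shortest intervals, with those tied. Other genes of a list are named where a count is small. A few intervals and a gene cluster that this rule names are not reported here. Versions were matplotlib 3.10.9, scipy 1.17.1, pandas 2.3.3, numpy 2.4.6 and Python 3.11.15.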

Additional observations from a re-analysis of the deposited data

How the results depend on the processing

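Of 29 alternatives for 10 results, 15 stayed within the counting interval or, for medians, the spread of the value as reported, 13 moved beyond it and 1 reversed. With strong boundaries only, density was 2.16 per Mb and median spacing 325 kb, because fewer boundaries were counted. The share of boundaries with a TSS was 14.7% in the bin alone, 61.5% within 25 kb, 51.1% with the TSSs of all transcripts and 57.7% with genes of every biotype. The same shares of all bins were 6.27%, 41.6%, 37.0% and 39.7%. The difference between strong and weak boundaries in TSS share was 3.17 points in the bin alone. The exon share with every biotype was 52.0% (bins 37.0%). The CTCF share was 8.08% in the bin alone, 48.2% within 25 kb, 86.0% with the looser consensus and 26.4% outside repeats, against 3.53%, 29.8%, 74.2% and 13.3% of bins. The difference between strong and weak boundaries in CTCF share reversed to -0.326 points in the bin alone and was 17.98 points within 25 kb. The causes of these shifts between windows were not tested. With the looser consensus, 53.3% of matches beside a bin pointed away, against 68.3%. The alternatives that leave out members within 100 kb of a gap were chosen after seeing the data. No paired analysis was possible because both replicates of the only group were pooled into 1 list.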
